A study of Mus musculus with 2 samples.

Results

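Oxidative phosphorylation is the part of respiration that takes place on the inner mitochondrial membrane. Complexes I to IV pass electrons from NADH and succinate to oxygen and build a proton gradient, and complex V, the ATP synthase, uses that gradient to make ATP. A small number of the subunits are encoded by mitochondrial DNA, and all others, including every subunit of complex II, are encoded in the nucleus. Some nuclear subunits of complex IV exist in pairs, with a form used in most tissues and a form that belongs to heart and skeletal muscle, testis or other tissues. The colonic epithelium is rich in mitochondria, which burn butyrate and other fuels in the surface cells.

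The nuclear genes of this system were taken by symbol, as those starting with Nduf, Uqcr, Cox4 to Cox8 or Atp5 and the genes Sdha, Sdhb, Sdhc and Sdhd. Symbols ending in -ps, which mark pseudogenes, were left out, and there were 3 of them. This gave 99 members of 40879 gene symbols, of which 94 were found in GENCODE M21 (mouse build GRCm38), spread over 19 chromosomes. By their known places in the complexes, 42 are subunits of complex I or copies named after them, 8 are assembly factors of complex I (Ndufaf genes, which are not part of the finished enzyme), 4 belong to complex II, 8 to complex III, 20 to complex IV and 17 to complex V. Ndufa4 and its relative Ndufa4l2 were counted with complex IV, since NDUFA4 is now known as a subunit of cytochrome c oxidase. The rule uses the symbol alone.

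The study compared the intestine of WT mice with that of ERAP1+/- mice, which lack 1 working copy of Erap1, an aminopeptidase of the endoplasmic reticulum that trims peptides for MHC class I. All animals were on the C57BL/6 background, and the methods call them germ-free and place them in a specific pathogen-free facility. They were 8 weeks old when assigned to groups, and the age at which the sequenced tissue was taken is not stated. The ERAP1+/- animals carried the EUCOMM tm1a allele, made in 1 embryonic stem cell clone and crossed to a Cre strain that the methods do not name, so that exons 6 and 7 between the loxP sites are removed. Equal amounts of RNA from 3 mice were pooled for each genotype and sequenced as 1 library each from the 3' ends of transcripts. The study describes the compared mice as at steady state, that is, without induced colitis. The labels give neither sex nor the segment of the intestine.

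The WT library held 8114826 reads and the library labelled ERAP1+/- 8907515. Levels are given as CPM, counts scaled to a common library size by TMM, or as log2(CPM + 1). The log2 scale makes differences of genes with few reads look smaller than they are. Every scaled ratio below is the CPM in the library labelled ERAP1+/- divided by that in WT, after TMM. It is the ratio of the reads divided by 1.20, the ratio of the scaled library sizes. Because reads come from transcript ends, the level of a gene does not grow with its length. There was no replicate, so no difference below carries a test, and the 95% intervals cover counting error only. Erap1 itself was counted 229 times in WT and 2 times in the library labelled ERAP1+/-, far below the level that 1 intact copy would give. Its reads come from the transcript end, outside the deleted exons, and so do not check the deletion. The tissue label was met by 18 of 18 colonic epithelium markers with a log2 value of at least 4, with a summed level of 16742 CPM in WT and 14883 CPM in the other library. Of these 18, 13 were lower in the library labelled ERAP1+/- and 5 higher, with a median log2 difference of -0.31, from -1.20 for Krt20 to 2.01 for Fabp2. The part of this in the members' values was not tested. The 30 skeletal muscle markers summed to 2024 CPM in WT and 272 CPM in the library labelled ERAP1+/-, the 16 epidermis markers to 3729 and 42.9 CPM, the 10 smooth muscle markers to 11566 and 5921 CPM, and the 7 plasma cell markers to 494 and 2086 CPM. In pooled tissue, fewer cells of a type and less RNA per cell cannot be told apart.

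The promoters of these genes are known for binding sites of NRF1, a factor named for its action on respiratory genes, and of YY1. RefSeq promoters of GRCm38.p6 (250 bases before to 50 bases after the start) were found for 78 of the 99 members, with 83 promoters among them. The NRF1 motif was searched as GCATGCGC and the YY1 motif as AAGATGGCG, on both strands. For each complex with a match, the member with the most reads is shown, in a window of the strand of the gene. The first 6 windows hold the NRF1 letters and the last 3 the YY1 letters, in capitals; where the NRF1 letters also match on the other strand in overlap, the capitals cover both.

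Ndufa6 (complex I, chr15:82354356-82354385, minus strand): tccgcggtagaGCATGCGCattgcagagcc
Ndufaf4 (complex I assembly, chr4:24897960-24897989, plus strand): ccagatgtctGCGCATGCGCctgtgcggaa
Sdhb (complex II, chr4:140961206-140961235, plus strand): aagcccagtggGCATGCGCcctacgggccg
Uqcr11 (complex III, chr10:80406807-80406836, minus strand): atcgccttcacGCATGCGCtatacgtctgc
Cox6a1 (complex IV, chr5:115349101-115349130, minus strand): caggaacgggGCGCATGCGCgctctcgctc
Atp5k (complex V, chr5:108434430-108434459, minus strand): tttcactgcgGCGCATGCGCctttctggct
Ndufc1 (complex I, chr3:51408915-51408944, minus strand): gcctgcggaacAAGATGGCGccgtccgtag
Ndufaf8 (complex I assembly, chr11:120098933-120098962, plus strand): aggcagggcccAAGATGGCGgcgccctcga
Atp5j2 (complex V, chr5:145191500-145191529, minus strand): accaggacttcAAGATGGCGtcactcggtg

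The NRF1 letters stood in 12 of the 83 member promoters (14.5%), against 4.96% of 8191 promoters of genes with a log2 value of at least 4 and 2.71% of all 32851 promoters. The YY1 letters stood in 8 member promoters (9.64%), against 3.15% and 1.40%. In the 3 YY1 windows, the match lies after the transcription start, from base 11 to base 32 of the transcript. For the other motifs, the same 2 backgrounds are given in the same order. An ETS motif (CCGGAAG) was found in 22.9% of member promoters against 17.7% and 8.86%. The members were thus closer to genes with a log2 value of at least 4 than to all genes. An estrogen-related receptor motif (TCAAGGTCA) stood in 2 promoters, those of Atp5g3 and Sdhd, or 2.41% against 0.208% and 0.423%. The SP1 motif (GGGGCGGGG) was found in 14.5% against 21.6% and 11.4%. CCAAT was found in 42.2% against 36.4% and 37.4%, and TATAAA in 10.8% against 8.19% and 13.6%. For SP1 and TATAAA the direction of the difference thus depended on the background. None of these motifs contains another, though matches can overlap at their ends. A match is a description of the letters and not a measured binding site. The median log2 difference between the libraries was 0.21 for the 12 members with the NRF1 letters and 0.22 for 64 without them, and 0.35 for the 8 with the YY1 letters and 0.18 for 68 without.

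Most nuclear genes of oxidative phosphorylation were slightly higher in the library labelled ERAP1+/-. Of the 92 members with at least 10 reads over both libraries, 80 were higher and 12 lower there, with a median log2 difference of 0.20 (25th to 75th percentile 0.09 to 0.30). The median over all 16142 genes with that many reads was 0.00 (-0.31 to 0.30). Of the 80 members with a log2 value of at least 4 in 1 or both libraries, 73 were higher and 7 lower, against 47.3% higher of the 8013 genes at that level. The spread was also narrow. These 80 members had a standard deviation of 0.15 on the log2 scale and all genes at that level 0.78, and 79 of the 80 differed by less than 0.5. Their 25th to 75th percentile ran from 0.10 to 0.30, and that of all genes at that level from -0.28 to 0.21. In lists added after the values were seen, the standard deviation was 0.16 for proteasome subunits and 0.19 for cytosolic ribosomal proteins. It was 0.24 for mitochondrial ribosomal proteins and 0.33 for translocases of the mitochondrial membranes.

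No member at that level passed 2-fold (0 of 80), while 5.34% of all genes at that level did, with 1.39% higher and 3.96% lower in the library labelled ERAP1+/-. The counting interval of the ratio lay above 1 for 58 members and below 1 for 2, Ndufv3 and Ndufa6, and held 1 for the other 20. Among all genes at that level the interval lay above 1 for 25.5% and below 1 for 32.4%. These members are deeply counted, with at least 317 reads over both libraries. The spread between mice of 1 genotype is not covered by these intervals.

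The size of the shift depended on the scaling of the libraries. With the total count in place of TMM, the median of the members was 0.32 and the median of all genes at a log2 value of at least 4 was 0.10 in place of -0.03. The distance of the members from all genes was then about the same. With that scaling 79 of the 80 members and 4851 of the 8013 genes were higher, and Ndufv3 alone remained lower. Among the 3046 genes with a log2 value of at least 6, where most members lie, 40.8% were higher under TMM with a median of -0.08, and 68 of 75 members were higher with a median of 0.20.

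**Figure D1:**
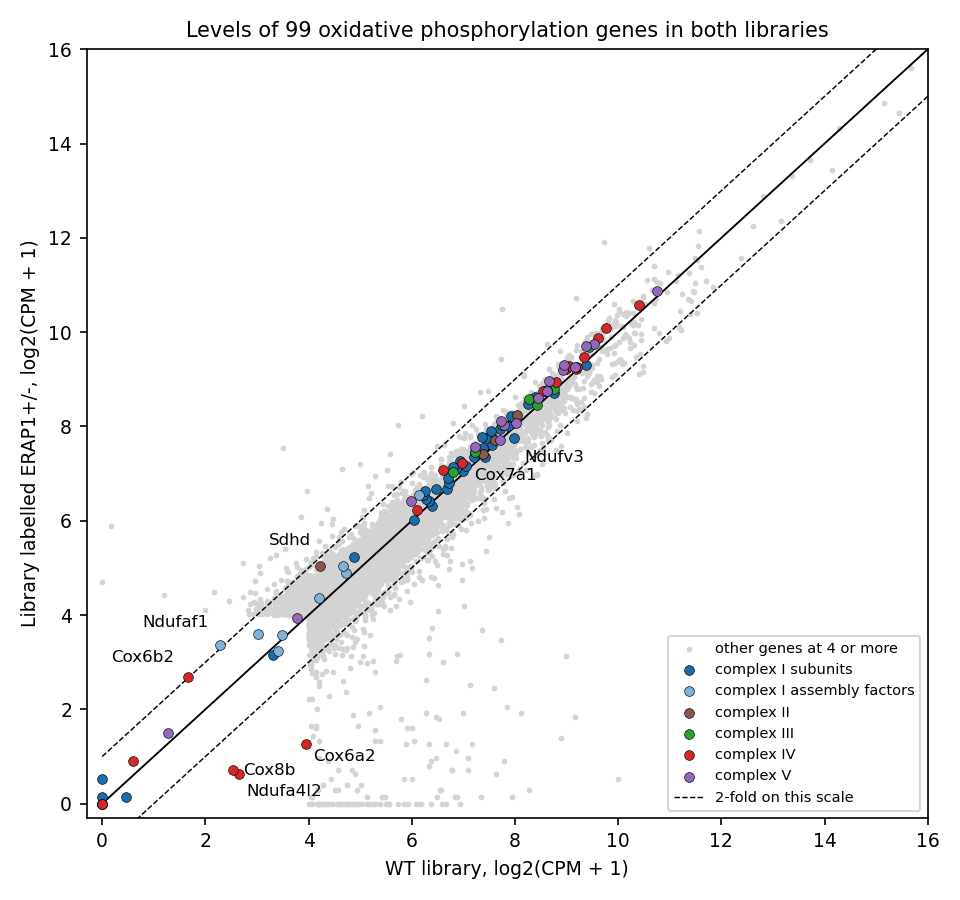
Levels of the 99 members in the WT library (x axis) and the library labelled ERAP1+/- (y axis), both in log2(CPM + 1), with members coloured by complex and other genes with a value of at least 4 in grey. Members above a value of 4 lie in a tight band inside the dashed 2-fold lines, 73 of 80 above the line of equal levels and 7 below it, and Cox6a2, Cox8b and Ndufa4l2 lie far below the band at the lower left.

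Summed over the members, the WT library held 186488 reads and the library labelled ERAP1+/- 253735. This was 2.30% of all reads in WT (Clopper-Pearson 95% interval 2.29% to 2.31%) and 2.85% (2.84% to 2.86%) in the other. Without the features of the mitochondrial genome, which took 13.8% and 14.0% of all reads, the shares were 2.66% and 3.31%. The scaled ratio of the sums was 1.14 (1.13 to 1.14). The most abundant member was Atp5g3, a gene for the ring subunit c of ATP synthase, at 1723 CPM in WT and 1882 CPM in the library labelled ERAP1+/-. It was followed by Cox6c, a small subunit of cytochrome c oxidase, at 1346 and 1530 CPM, and by Cox6a1 at 873 and 1091 CPM. All 3 were higher in the library labelled ERAP1+/-.

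Complex I takes electrons from NADH. Its core is formed by 7 nuclear subunits that hold the flavin and the iron-sulfur clusters, and all 7 were higher in the library labelled ERAP1+/-. Their log2 differences ran from 0.07 for Ndufv2, a subunit of the NADH-binding module, to 0.35 for Ndufs3, with a median of 0.20. The counting intervals of the ratio held 1 for Ndufv2 (0.976 to 1.12) and Ndufs1 (0.954 to 1.18), and lay above 1 for the others. The last 300 bases of Ndufs3 share 47.8% of their 75-base stretches with another gene, so its reads are less certain. The 7 core genes summed to 5201 and 7137 reads, a scaled ratio of 1.15 (1.11 to 1.19).

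Over all subunits of complex I, 29 of the 36 at a log2 value of at least 4 were higher and 7 lower, and every member that was lower at this level belonged to complex I. The 7 were the accessory subunits Ndufv3, Ndufa6, Ndufb4, Ndufa11, Ndufb8, Ndufab1 and Ndufb7. Apart from Ndufv3, their differences lay between -0.07 and 0.00 and turned positive with scaling by the total count. Ndufv3, an accessory subunit of the NADH-binding module, had 1960 reads in WT and 2000 in the library labelled ERAP1+/-. This was 252 and 215 CPM, a log2 difference of -0.23 and a scaled ratio of 0.852 (0.800 to 0.908). It was lower under both scalings. Ndufa6 had 5147 and 5863 reads, or 662 and 630 CPM, a scaled ratio of 0.952 (0.916 to 0.988).

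At the other end stood Ndufa7, with 1272 and 2027 reads and a log2 difference of 0.41. Ndufc1 had 1427 and 2228 reads, a difference of 0.38, and Ndufa9 588 and 907 reads, a difference of 0.36. All 3 are accessory subunits, and their scaled ratios lay between 1.29 and 1.33. The summed reads of complex I subunits were 51587 and 68230, a scaled ratio of 1.10 (1.09 to 1.12).

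Ndufs5 was the other low value of complex I, with 69 and 73 reads and a scaled ratio of 0.884 (0.627 to 1.25) that holds 1. Its level was under the limit of 4. Of the 75-base stretches at its transcript end, 37.9% are shared with another gene, and the pseudogene Ndufs5-ps carried 25 and 20 reads, so the reads given to Ndufs5 depend on how shared reads were counted. Ndufb4 had 644 and 733 reads, a scaled ratio of 0.951 (0.854 to 1.06).

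The assembly factors of complex I, the Ndufaf genes, were less abundant than the subunits, and 4 of 8 reached a log2 value of 4. They summed to 1304 and 1970 reads, a scaled ratio of 1.26 (1.18 to 1.35). Ndufaf1, a factor needed to build the membrane arm of complex I, had 30 reads in WT and 86 in the library labelled ERAP1+/-. Its log2 difference was 1.08 and its scaled ratio 2.39 (1.56 to 3.76), above 2-fold, at a level below the limit of 4. Ndufaf6 had 55 and 103 reads, a scaled ratio of 1.56 (1.12 to 2.21), and Ndufaf8 542 and 857, a scaled ratio of 1.32 (1.18 to 1.47). Ndufaf4 had 189 and 298 reads, and its scaled ratio of 1.32 (1.09 to 1.59) was practically that of Ndufaf8. The intervals of these 4 lay above 1. The lowest was Ndufaf5, with 75 and 78 reads and a scaled ratio of 0.869 (0.625 to 1.21). Ndufaf7 had 79 and 101 reads and a scaled ratio of 1.07 (0.788 to 1.45), and Ndufaf2 199 and 265 reads and a scaled ratio of 1.11 (0.922 to 1.34). The intervals of these last 3 all hold 1.

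Complex II, succinate dehydrogenase, is also an enzyme of the citric acid cycle. All 4 subunits were higher, but by different amounts. Sdhd, a membrane anchor subunit, had 138 reads in WT and 298 in the library labelled ERAP1+/-, or 17.8 and 32.0 CPM. Its log2 difference of 0.82 and scaled ratio of 1.80 (1.47 to 2.22) were the largest among the 80 members at a log2 value of at least 4. Sdhc, the other anchor, had 1287 and 1578 reads, a scaled ratio of 1.02 (0.951 to 1.10) that holds 1. The anchors, which form a pair in the enzyme, thus had intervals that did not overlap. The flavin subunit Sdha had 1511 and 1939 reads, a scaled ratio of 1.07 (1.00 to 1.15), and the iron-sulfur subunit Sdhb, whose promoter window is shown above, 2027 and 2794 reads, a scaled ratio of 1.15 (1.09 to 1.22). The 4 genes summed to 4963 and 6609 reads, a scaled ratio of 1.11 (1.07 to 1.15). Sdhd lies on chromosome 9 from 50596357 to 50603812 (GRCm38, minus strand), and no stretch of its transcript end was shared with another gene. Sdha lies on chromosome 13 from 74322254 to 74350280, and the targeted gene Erap1 on the same chromosome from 74639568 to 74693201. Ndufs6 of complex I (log2 difference 0.27) also lies on chromosome 13, from 73319838 to 73328542. The part of this position in the values of Sdha and Ndufs6 was not tested.

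Complex III passes electrons from ubiquinol to cytochrome c. All 8 members were higher, with log2 differences between 0.04 and 0.30 and a scaled ratio of the sums of 1.14 (1.12 to 1.16). The core protein Uqcrc2 had 2394 and 3538 reads, a difference of 0.30. The Rieske iron-sulfur protein Uqcrfs1 had 1665 and 2427 reads, a difference of 0.28, and the hinge protein Uqcrh 5392 and 7695 reads, a difference of 0.25. The small subunit Uqcr11 had 1154 and 1626 reads, a scaled ratio of 1.18 (1.09 to 1.27). That was about the value of the core protein Uqcrc1, 1.19 (1.09 to 1.30). The 3 lowest members were nearer to equal. Uqcrb had 2651 and 3254 reads, a scaled ratio of 1.03 (0.974 to 1.08), and Uqcr10 3370 and 4144 reads, a scaled ratio of 1.03 (0.981 to 1.08). Uqcrq had 3042 and 4047 reads, a scaled ratio of 1.11 (1.06 to 1.17), the only one of these 3 whose interval lay above 1.

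Complex V, the ATP synthase, had 17 members, all with at least 10 reads and all higher in the library labelled ERAP1+/-. Their summed reads were 53913 and 74695, a scaled ratio of 1.16 (1.14 to 1.17). Subunit c is made from 3 genes that encode the same mature protein. Atp5g1 had 483 and 791 reads, a log2 difference of 0.45 that was the highest of the complex, and Atp5g3 13390 and 17504 reads, a difference of 0.13. Atp5g2 had 11 and 17 reads, and 51.4% of the stretches at its transcript end are shared with other genes, so its reads are less certain. Of the reads as counted for these 3 genes, most were given to Atp5g3 in both libraries. Atp5j, a subunit of the stalk, had 1641 and 2555 reads, a difference of 0.38. Atp5o, which links the stalk to the catalytic head, had 3818 and 5855 reads, a difference of 0.36.

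The lowest of complex V was Atp5c1, the gene of the rotating gamma subunit, with 1616 and 1943 reads and a scaled ratio of 1.00 (0.940 to 1.07). The catalytic subunits of the same head, Atp5a1 and Atp5b, had scaled ratios of 1.18 (1.14 to 1.22) and 1.21 (1.16 to 1.26). The interval of Atp5c1 did not overlap with either. Atp5h had 2001 and 2502 reads, a scaled ratio of 1.04 (0.984 to 1.11), with 49.3% of its end stretches shared with another gene, and Atp5k 4449 and 5681 reads, a scaled ratio of 1.07 (1.03 to 1.11). Atp5l had 99 and 134 reads, and 59.7% of its end stretches are shared with copies elsewhere in the genome.

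**Figure D2:**
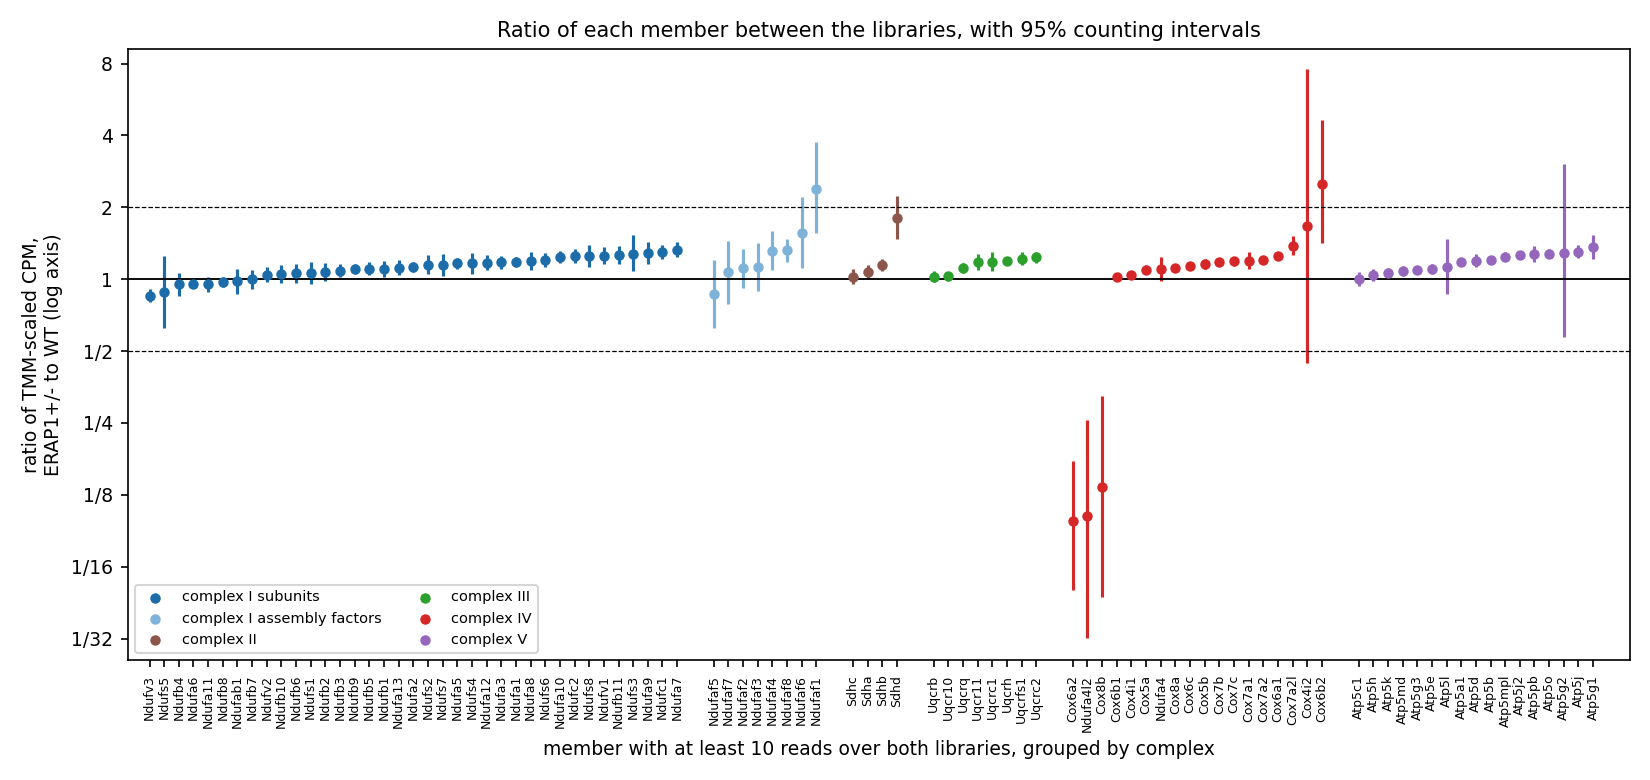
Ratio of the TMM-scaled CPM, library labelled ERAP1+/- to WT, for the 92 members with at least 10 reads over both libraries, grouped by complex and ordered by this ratio (y axis logarithmic), with bars for 95% counting intervals. Most points lie between 1 and 1.4, and the 3 points far below 1 are Cox6a2, Ndufa4l2 and Cox8b.

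Complex IV, cytochrome c oxidase, was the complex in which the tissue forms stood apart from the rest. Its summed reads were 54199 and 74287, a scaled ratio of 1.14 (1.13 to 1.16), and all 13 members at a log2 value of at least 4 were higher in the library labelled ERAP1+/-. The highest of these was Cox7a2l, a factor of the supercomplex of complexes III and IV, with 753 and 1245 reads and a log2 difference of 0.46. The forms used in most tissues were all higher. Their log2 differences were 0.32 for Cox6a1 (6782 and 10153 reads), 0.27 for Cox7a2 (6044 and 8730), 0.15 for Cox8a (4990 and 6641), 0.05 for Cox4i1 (4586 and 5698), 0.04 for Cox6b1 (4509 and 5536) and 0.14 for Ndufa4 (523 and 689). The counting interval of the ratio held 1 for Cox4i1 (0.998 to 1.08), Cox6b1 (0.986 to 1.07) and Ndufa4 (0.981 to 1.24). It lay above 1 for Cox6a1, Cox7a2 and Cox8a.

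The muscle forms did not follow 1 pattern. Cox6a2, the heart and skeletal muscle form of subunit VIa, had 112 reads in WT and 13 in the library labelled ERAP1+/-, or 14.4 and 1.40 CPM. It was 10.3-fold lower (5.79 to 20.0) in the library labelled ERAP1+/-, a log2 difference of -2.68. Its log2 value in WT was 3.95, just under the limit of 4, and for this reason it was not among the genes called. Cox8b, the heart and skeletal muscle form of subunit VIII, had 37 and 6 reads, or 4.76 and 0.645 CPM, and was 7.38-fold lower (3.09 to 21.4). Cox7a1, the heart, skeletal muscle and brown fat form of subunit VIIa, went the other way, with 964 and 1381 reads, or 124 and 148 CPM. Its scaled ratio of 1.20 (1.10 to 1.30) was close to that of its partner Cox7a2, 1.21 (1.17 to 1.25). On chromosome 7 of GRCm38, Cox6a2 lies from 128205435 to 128206387 on the minus strand, Cox8b from 140898945 to 140900446 on the minus strand and Cox7a1 from 30184144 to 30186078 on the plus strand. No end stretch of these 3 genes was shared with another gene.

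The share of the tissue form within its pair does not depend on how the libraries were scaled. Cox6a2 made up 1.62% (1.34% to 1.95%) of the reads of Cox6a2 and Cox6a1 in WT and 0.128% (0.0681% to 0.219%) in the library labelled ERAP1+/-. Cox8b made up 0.736% (0.519% to 1.01%) of its pair with Cox8a in WT and 0.0903% (0.0331% to 0.196%) in the other. The share of both was lower in the library labelled ERAP1+/-, with intervals that did not overlap. Cox7a1 made up 13.8% (13.0% to 14.6%) of its pair with Cox7a2 in WT and 13.7% (13.0% to 14.3%) in the other, a share that was large and did not differ beyond counting error.

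Beside these values stand those of the skeletal muscle markers. All 29 of the 30 markers with at least 10 reads were lower in the library labelled ERAP1+/-, 17 of them by more than 2-fold among the 19 at a log2 value of at least 4, with a median log2 difference of -4.00. Atp2a1 and Casq1 were at 0 there. Eno3, 1 of the 29, was higher when the total count was used for scaling. The smooth muscle markers were lower as well (10 of 10, median -0.91), and 6 of the 7 adipocyte markers with at least 10 reads were higher (median 0.73), with 3 and 0 reads for Ucp1, the marker of brown fat. The part of these tissues in the values of Cox6a2, Cox8b and Cox7a1 was not tested.

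Among the other tissue forms, Ndufa4l2, a relative of Ndufa4 known from cells short of oxygen, had 41 reads in WT and 5 in the library labelled ERAP1+/-. It was 9.82-fold lower (3.88 to 31.8) and made up 7.27% (5.27% to 9.73%) of its pair with Ndufa4 in WT and 0.720% (0.234% to 1.67%) in the other. Cox6b2, the testis form of subunit VIb, had 17 and 51 reads, a scaled ratio of 2.51 (1.42 to 4.63), and its share of the pair with Cox6b1 was 0.376% (0.219% to 0.601%) and 0.913% (0.680% to 1.20%). Cox4i2, the lung form of subunit IV, had 4 and 8 reads, a share of 0.0871% (0.0237% to 0.223%) and 0.140% (0.0605% to 0.276%), which did not differ beyond counting error. The testis forms Cox7b2 and Cox8c had no read in both libraries. Where no read was counted, as many as 3 could still be compatible with the depth, which is 0.386 CPM for WT and 0.322 CPM for the library labelled ERAP1+/-.

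**Figure D3:**
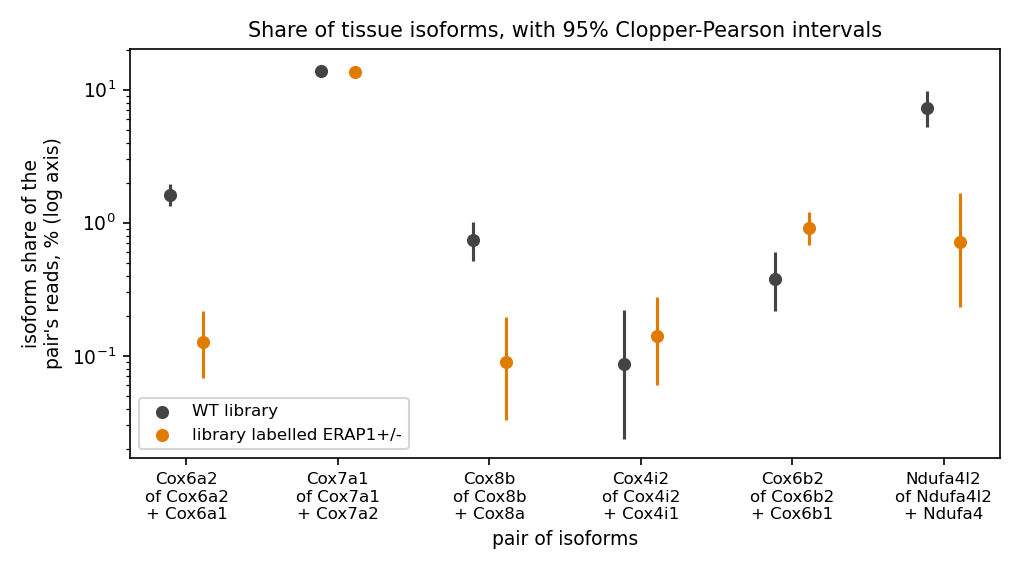
Share of reads of the tissue form within its pair with the form used in most tissues, in percent on a logarithmic axis, for 6 pairs in the WT library (grey) and the library labelled ERAP1+/- (orange), with Clopper-Pearson 95% intervals. The shares of Cox6a2, Cox8b and Ndufa4l2 were lower in the library labelled ERAP1+/-, that of Cox6b2 was higher, and those of Cox7a1 and Cox4i2 overlapped.

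Counted over all 92 members with at least 10 reads, 5 passed 2-fold on the log2(CPM + 1) scale. Cox6a2, Cox8b and Ndufa4l2 were lower and Cox6b2 and Ndufaf1 higher in the library labelled ERAP1+/-. Of all genes with at least 10 reads, 8.61% passed 2-fold, and the 5 of 92 are not above that share. All 5 lay among the 12 members below the log2 limit of 4, where 11.8% of all genes with at least 10 reads passed 2-fold. Of these 12 members, 5 are the tissue forms Cox6a2, Cox8b, Ndufa4l2, Cox6b2 and Cox4i2. The 7 symbols outside the 92 members had almost no reads. Ndufa11b and Ndufb11b, like Cox7b2 and Cox8c, were at 0 in both libraries, and Ndufb4b (0 and 1 read), Ndufb4c (3 and 1) and Ndufs6b (0 and 4) had under 10 reads in all. Of these, Ndufa11b, Ndufb4c and Ndufs6b are annotated as processed pseudogenes.

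Shared sequence was looked at for the 91 members with a coding transcript. In 69 of them, no 75-base stretch of the last 300 bases was found in a transcript of another gene, and in 3 more than 50% were shared, namely Cox7c (62.7%), Atp5l and Atp5g2. For Cox7c the other genes carried 35 and 43 reads, against 4088 and 5812 for Cox7c itself. Ndufa1, Ndufb11 and Cox7b lie on the X chromosome. Ndufa1 had 2595 and 3663 reads (log2 difference 0.24), Ndufb11 863 and 1300 (0.33) and Cox7b 3945 and 5565 (0.24). Beside them, the X-inactivation transcript Xist had 1635 and 6451 reads, and without the X-linked members the median of the rest was 0.20.

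The subunits encoded by mitochondrial DNA were not higher together with the nuclear ones. Of 13 such genes, 8 had at least 10 reads, 3 higher and 5 lower in the library labelled ERAP1+/-, with a median log2 difference of -0.06. With scaling by the total count, 6 of 8 were higher and the median was 0.06. Their reads summed to 555362 and 592960, a scaled ratio of 0.892 (0.889 to 0.895) where the nuclear members had 1.14. The read sum itself was higher in the library labelled ERAP1+/-, which held more reads in all. As a share of all reads, the sum was 6.84% in WT (6.83% to 6.86%) and 6.66% (6.64% to 6.67%) in the other library. It was thus lower there without TMM as well, though by less. ND4, a complex I subunit, carried the most reads, 282126 and 274782, and had the lowest log2 difference, -0.30. ND6, the subunit encoded on the other strand of mitochondrial DNA, had 84 and 153 reads and the highest, 0.56. COX1, the catalytic subunit of complex IV, had 20561 and 22851 reads, a difference of -0.11. The ratio of the sums leans most on ND4, which had a scaled ratio of 0.814. CYTB, ND2 and ND1, next in reads, had scaled ratios of 0.955, 0.962 and 1.05. ATP6, ATP8, COX2, COX3 and ND4L are listed at 0 in both libraries. Cells with mitochondria use these genes, so a value of 0 here is not read as absence of the transcript, and the sum holds only the genes with reads. Cycs, the cytochrome c gene of somatic tissue, had 515 and 596 reads, a scaled ratio of 0.967 (0.858 to 1.09), and the testis form Cyct 0 and 3 reads.

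Genes that work beside the complexes gave a mixed picture. Of 46 assembly factors that the symbol rule does not cover, 45 are in the files and 42 had at least 10 reads. Of these, 31 were higher and 11 lower, with a median log2 difference of 0.16, and none was called. The highest was Nubpl, an iron-sulfur cluster factor of complex I, with 11 and 40 reads and a difference of 1.13. The lowest was Sdhaf2, which attaches the flavin of complex II, with 234 and 222 reads and a difference of -0.32. The 14 genes of the citric acid cycle had a median of 0.25, with 11 higher, 3 lower and none called. Idh3a, the catalytic subunit of the NAD-linked isocitrate dehydrogenase, had 546 and 1154 reads, the highest difference at 0.81. Cs, the citrate synthase gene, had 2793 and 2245 reads, the lowest at -0.57, so that the first enzyme of the cycle was lower and the NAD-linked dehydrogenase higher.

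The carriers and porins that move ATP, phosphate and metabolites across the membranes had a median of -0.02, with 3 of 8 higher. With scaling by the total count their median was 0.10. Slc25a4, the ADP/ATP carrier of heart and skeletal muscle, had 2209 and 1387 reads, a difference of -0.93 and the lowest of the list. Slc25a5, the form found in most tissues, had 1710 and 2204 reads, a difference of 0.11. The carrier thus resembled Cox6a2 and Cox8b in direction, beside the same skeletal and smooth muscle markers, whose part was not tested. Tomm40, the import pore, was highest at 0.50, with 295 and 504 reads. The 15 regulators of mitochondrial biogenesis had a median of 0.00, with 7 higher and 8 lower, and 0.12 with scaling by the total count. Ppargc1a, the coactivator PGC-1alpha, had 614 and 704 reads, a scaled ratio of 0.958 (0.858 to 1.07). Tfam, which packs and transcribes mitochondrial DNA, had 231 and 357 reads, a scaled ratio of 1.29 (1.09 to 1.53). Pprc1 was highest at 0.79, with 36 and 81 reads, and Gabpb1, a subunit of the ETS factor NRF2, lowest at -0.51, with 91 and 74 reads. No regulator or carrier was called.

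**Figure D4:**
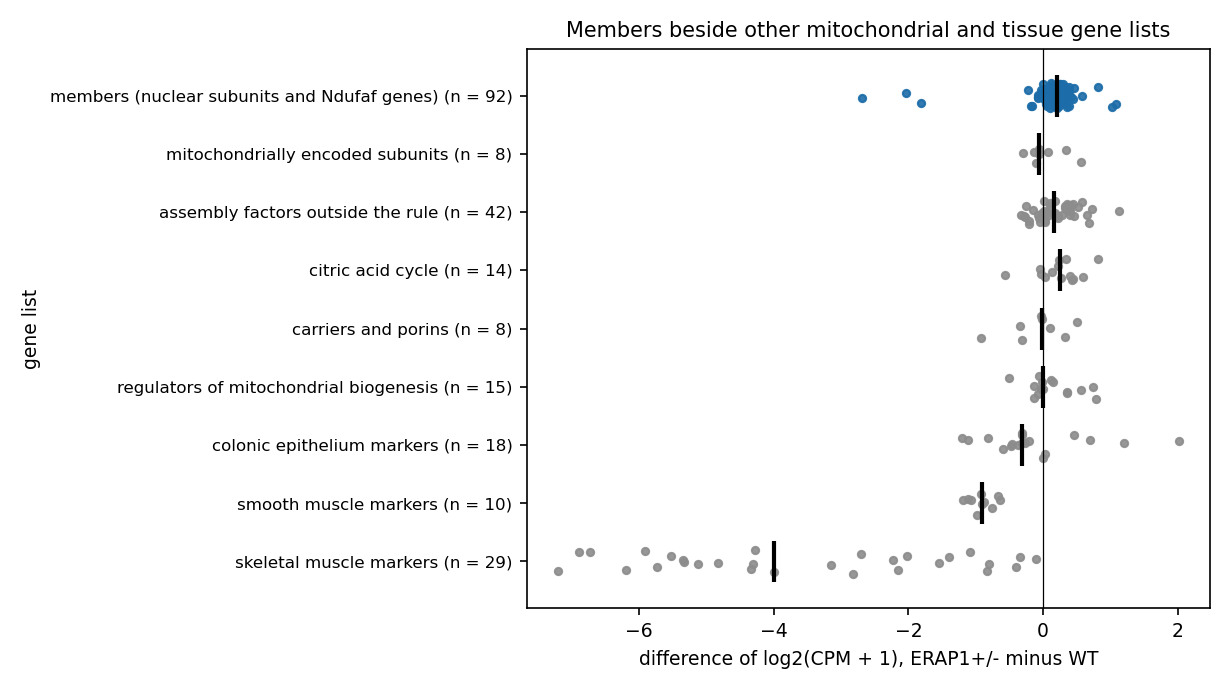
Difference of log2(CPM + 1), library labelled ERAP1+/- minus WT (x axis), for the 92 members and for other lists (y axis), with 1 point per gene with at least 10 reads over both libraries and a black bar at the median. The members cluster at a median of 0.20, while mitochondrially encoded subunits sit at -0.06, smooth muscle markers at -0.91 and skeletal muscle markers at -4.00.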

How the data were processed

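RNA from the intestine of WT and ERAP1+/- mice was sequenced with QuantSeq 3' FWD (single-end, 75 bases). The authors trimmed reads with bbduk and deposited raw counts of reads for each gene symbol. The methods name STAR with HTSeq-count in one place, and Bowtie2 with RSEM on GRCm38 in another, as do the submitters' processing notes; which made the deposited counts is not stated. The counts were scaled with TMM (edgeR 4.0.16, R 4.3.3; factors 0.958 for WT and 1.04 for the other library) and given as log2(CPM + 1). A gene was called where it passed 2-fold on that scale with a value of at least 4 in 1 or both libraries. With 1 library per genotype no test can be fitted. Ratios carry exact conditional binomial intervals and shares Clopper-Pearson intervals (scipy 1.17.1). Coordinates come from GENCODE M21 and promoters from RefSeq.

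The members and lists were chosen with earlier results of these data known. Named are the tissue forms and their partners, and the X-linked members. The 3 highest and 3 lowest members of each complex with at least 10 reads are named, as are members with at most 10 reads. From other lists, the called genes are named, and the extremes of most lists. Further genes (among them the core of complex I, Ndufa6, Ndufaf4, Atp5a1, Atp5b, Atp5g3, Cox6c, Cox7c, Atp5l, COX1, Tfam and Ppargc1a) were chosen after their values were seen. Alternatives were DESeq2 1.42.0 size factors, total counts, TMM without some features, a pseudocount of 0.1 CPM, other filters and a 4-fold threshold.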

Additional observations from a re-analysis of the deposited data

How the results depend on the processing

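The number of members called, 0 with TMM, was also 0 with DESeq2 size factors, total counts, TMM without the muscle and epidermis lists, a pseudocount of 0.1 CPM, a log2 limit of 6 and a 4-fold threshold. It was 1 with TMM computed without mitochondrial and ribosomal RNA, a setting that raises every CPM and so moves Cox6a2 past the limit of 4, and 5 both with no filter on low values and with at least 10 reads in 1 library in place of the limit. The median log2 difference of 0.20 was 0.32 with total counts and 0.20 in all other settings run, among them the one without X-linked members, which was chosen after seeing the data. With total counts 6 of 92 members changed sign, and with the other 4 scaling and pseudocount settings 0 did. No paired analysis was possible because there was a single library for each genotype, and for the same reason no replicate could be left out. For members with under 10 reads the depth does not allow a direction to be given.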

Other observations

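Other gene groups of large protein machines were set beside the members after their values were seen, and so serve only as a description. The 78 mitochondrial ribosomal proteins with at least 10 reads had a median log2 difference of 0.23, with 60 higher and 18 lower in the library labelled ERAP1+/-. The 95 cytosolic ribosomal proteins had 0.30 (86 higher, 9 lower), and the 22 translocases of the mitochondrial membranes 0.29 (18 higher, 4 lower). The 38 proteasome subunits had -0.03 (15 higher, 23 lower), and 0.10 with scaling by the total count. No gene of these lists at a log2 value of at least 4 passed 2-fold. Atpif1, the inhibitor of ATP synthase, which the symbol rule does not cover, had 2856 reads in WT and 4494 in the library labelled ERAP1+/-, a log2 difference of 0.39 beside 0.23 for the median of complex V.

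By the 2-fold rule with a log2 value of at least 4, Muc2 and Fabp2 were called higher and Car4 and Krt20 lower among the 18 colonic epithelium markers. Of the 16 epidermis markers 14 were called lower, namely Krt1, Krt10, Krt14, Krt5, Flg, Lor, Ivl, Krtdap, Dsc1, Sbsn, Dmkn, Lce1a1, Calm4 and Spink5, with log2 differences from -2.63 for Krt5 to -9.48 for Flg. The 17 skeletal muscle markers called lower were Acta1, Ckm, Mylpf, Myl1, Myl3, Myh1, Myh2, Myh8, Tnnt3, Tnni2, Tnnc2, Ttn, Neb, Atp2a1, Mb, Mybpc1 and Pygm, from -2.16 for Pygm to -7.20 for Myh8. Of the 10 smooth muscle markers Myh11 (-1.11), Tagln (-1.18) and Mylk (-1.07) were called lower. Of the 7 plasma cell markers Jchain (2.04), Mzb1 (2.34), Igha (2.74) and Igkc (2.45) were called higher. In all, 6 of the 7 were higher and 1 was lower, Sdc1, with 807 and 839 reads and a log2 difference of -0.20. Among the adipocyte markers, 1 of 8 was called higher, Cfd, with 163 reads in WT and 558 in the library labelled ERAP1+/-. The lowest with at least 10 reads was Lep, with 7 and 4 reads and a log2 difference of -0.41.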
